A study of Drosophila melanogaster with 28 samples.

Results

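Transcripts of osk, nos, pgc and gcl, the maternal genes best known for the germ plasm of Drosophila melanogaster, were followed through 4 kinds of RNA sample. The members were taken by name from the gene expression files, where each of the 4 has a single line, out of 13892 genes that could be joined between the libraries. The groups were embryos aged 0 to 2 h, whole dissected ovaries, OSS (ovarian somatic sheet) cells, which are grown in culture and hold no germline, and the carcass, which is the female body after removal of the ovaries, with 2 libraries each. Flies were kept at 25 °C with yeast paste, and the sources used here give neither their strain nor their genotype or age. A further 20 libraries of the study are knockdowns with nos-GAL4, a driver that carries regulatory sequence of nos. They were measured for transposon families only and do not enter here. Whole ovary mixes germline with follicle cells, carcass pools all other tissues, the embryo collection pools stages, and OSS is a single cell line.

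The germ plasm is cytoplasm at the posterior pole of the oocyte and early embryo that instructs nuclei entering it to become germ cells, the pole cells. osk encodes Oskar, which nucleates the germ plasm. Its RNA is carried to the posterior and kept silent until it arrives. The other members act downstream. nos encodes Nanos, which with Pumilio represses translation of maternal RNAs, pgc encodes a short protein that holds back transcription in pole cells by acting on the kinase P-TEFb, and gcl encodes an adaptor that removes the receptor Torso from forming pole cells. RNAs of this kind are made by nurse cells in the ovary and loaded into the egg, where only a part is held at the posterior and the rest is cleared from the embryo.

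Levels are FPKM, a measure of fragments that corrects for transcript length and for library size, so levels of different genes can be compared within a library. FPKM summed to between 459357 and 629055 per library, the sources used here give no read totals, and so the depth behind each value is unknown. The embryo libraries list more genes at 0 (5479 and 3920 lines) than ovary (2098 and 3184), OSS (2166 and 2640) and carcass (2514 and 1751). Defining markers were set beside the labels. A list of 9 germline markers summed to 2882 and 2814 FPKM in ovary and to 18.2 and 20.2 in OSS, 5 muscle markers summed to 98.9 and 107 in ovary and to 5491 and 4226 in carcass. The 4 markers of ovarian soma summed to 63.3 and 66.3 in ovary, 205 and 203 in OSS and 69.4 and 66.1 in carcass. The adhesion gene Fas3 made up 64.1 and 58.8 of the carcass sum and was not higher in OSS, at a mean of 37.9 in ovary and 32.0 in OSS. The 6 early zygotic genes summed to 107 and 120 FPKM in embryo and 44.2 and 42.7 in ovary, mostly from slam, at 98.3 and 111 in embryo, while nullo and bnk were listed at 0 in both embryo libraries. Nothing in the labels says that replicates came from separate flies or cultures, so the spread between them may be technical. In these bulk samples, fewer cells of a type and less RNA per cell cannot be told apart.

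osk was at 49.9 and 56.4 FPKM in embryo, 395 and 413 in ovary, 0.294 and 0.384 in OSS, and 23.5 and 29.5 in carcass. Ovary lay far above the rest and OSS was close to nothing. In ovary it ranked 151 and 149 by level among 13892 genes.

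nos was at 4.25 and 7.36 FPKM in embryo, 244 and 253 in ovary, 0.739 and 0.967 in OSS, and 12.6 and 12.4 in carcass. Ovary again lay far above the rest, but here embryo lay below carcass. Its rank in ovary was 288 and 272.

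pgc was at 13.4 and 7.25 FPKM in embryo, 360 and 352 in ovary, 16.9 and 20.9 in OSS, and 24.2 and 33.6 in carcass. Ovary stood alone at the top, and the other 3 groups lay close together, with a 1.84-fold gap between the 2 embryo libraries. In OSS, where osk and nos were under 1 FPKM, pgc was at 18.9 ± 2.78 (SD, n = 2).

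gcl was at 11.7 and 9.42 FPKM in embryo, 114 and 118 in ovary, 16.8 and 12.9 in OSS, and 18.5 and 20.6 in carcass. It was the least abundant member in ovary, with ranks of 989 and 904, and the 3 other groups lay within 9.42 to 20.6. Between replicates the members differed by 1.02-fold to 1.05-fold in ovary, 1.13-fold to 1.84-fold in embryo, 1.23-fold to 1.31-fold in OSS and 1.02-fold to 1.39-fold in carcass.

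**Figure D1:**
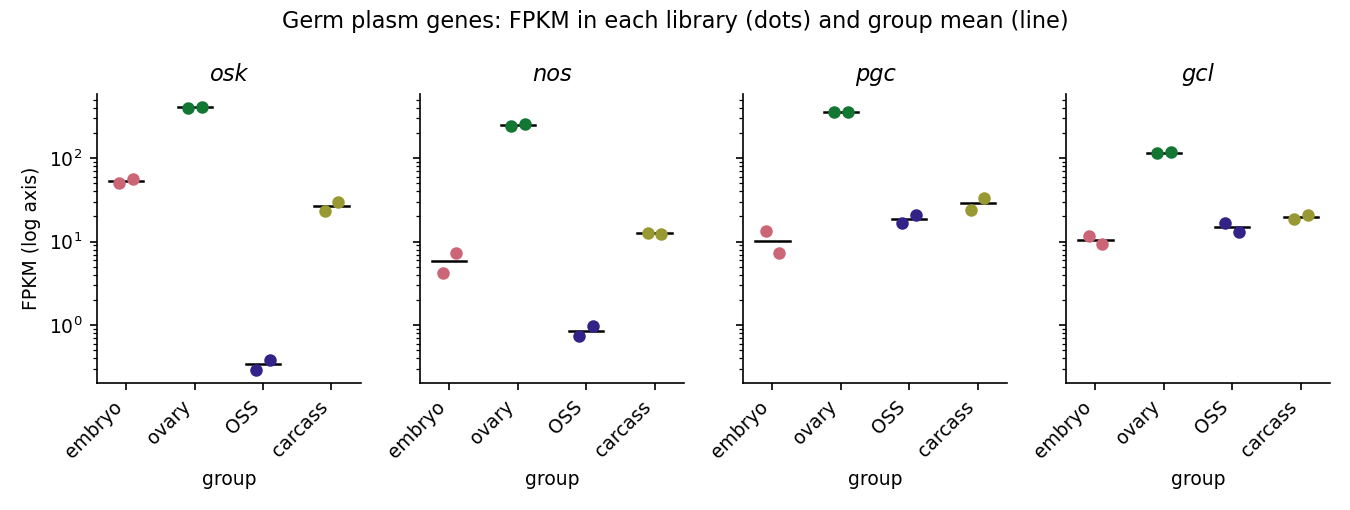
FPKM (log axis) of osk, nos, pgc and gcl in embryo, ovary, OSS and carcass, with a dot for each of the 2 libraries and a line at the group mean. Ovary is highest for each gene; osk and nos lie under 1 FPKM in OSS, while pgc and gcl lie between 12.9 and 20.9 there.

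Differences were tested with limma on log2(FPKM + 1) over 11488 genes in 1 fit of the 8 libraries, and a gene was called at a Benjamini-Hochberg adjusted p under 0.05. The 4 members passed the filter on low values. The scale understates differences of genes near 0. The comparisons share groups, ovary entering 3 of 6, so their values are given side by side and not as separate support for each other.

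Ovary was first set against carcass, to ask which transcripts belong to the ovary. The 4 members were higher in ovary in both libraries. osk averaged 404 ± 12.6 FPKM in ovary and 26.5 ± 4.20 in carcass (SD, n = 2 each), a log2 difference of 3.89 (SE 0.15, limma adjusted p = 3.25e-06). nos averaged 249 ± 6.52 and 12.5 ± 0.185, and had the largest log2 difference of the members, 4.21 (SE 0.24, limma adjusted p = 9.12e-06). For pgc the log2 difference was 3.59 (SE 0.28) and for gcl 2.51 (SE 0.17). The background is high: 74.6% of the genes tested were called in this comparison, 43.5% higher in ovary and 31.1% lower. The median over all genes was 0.31 as deposited and -0.28 with median-ratio scaling, and 58.3% of calls were higher as deposited against 40.8% with that scaling; the calls for the 4 members held in either case. With median-ratio scaling the log2 difference was 3.07 for osk, 3.4 for nos, 2.77 for pgc and 1.70 for gcl.

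Carcass still held a measurable amount of each member. The carcass mean was 5.03% of the ovary mean for nos, 6.57% for osk, 8.13% for pgc and 16.9% for gcl. The 9 germline markers had carcass means of 0.618% (stil) to 8.51% (dhd) of their ovary means, with a median of 4.49%, and their summed level was 201 and 205 FPKM in carcass. osk, nos and pgc fell inside that range and gcl lay above it. Eggshell and follicle cell markers, made beside the germline in the ovary, summed to 452 and 341 FPKM in carcass. Of this, Cp38 made up 264 and 39.1 and Cp36 155 and 34.7. The other markers of this list were higher in carcass replicate 2 than in replicate 1. Vm34Ca, the highest of the list in replicate 2, was at 4.01 and 122. The part of leftover ovary in the carcass levels was not tested.

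Ovary against OSS cells separates transcripts of the ovary that its somatic cells in culture lack. Here the members split. osk differed by 8.24 on the log2 scale (SE 0.15, limma adjusted p = 1.02e-06), the rank 11 difference of 11488 by size, and nos by 7.08 (SE 0.24, limma adjusted p = 5.29e-06), rank 33. pgc differed by 4.17 (SE 0.28, limma adjusted p = 5.67e-05) and gcl by 2.90 (SE 0.17, limma adjusted p = 3.76e-05). As a share of the ovary mean, OSS held 0.084% for osk, 0.343% for nos, 5.31% for pgc and 12.8% for gcl. Of the genes tested, 41.7% were called, 4796 in all, with 18.8% higher in ovary and 23% lower. A fit of the 2 groups alone called more, 7165 genes. The count of calls was 3071 without ovary replicate 2, 3044 without OSS replicate 1 and 3106 without OSS replicate 2, while the members stayed called without any of them. Among the germline markers, 5 of 9 were under 1% of ovary in OSS, the median was 0.903%, and stil stood out at 13.4%. plu and gnu were each listed at 0 in a single OSS library.

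**Figure D2:**
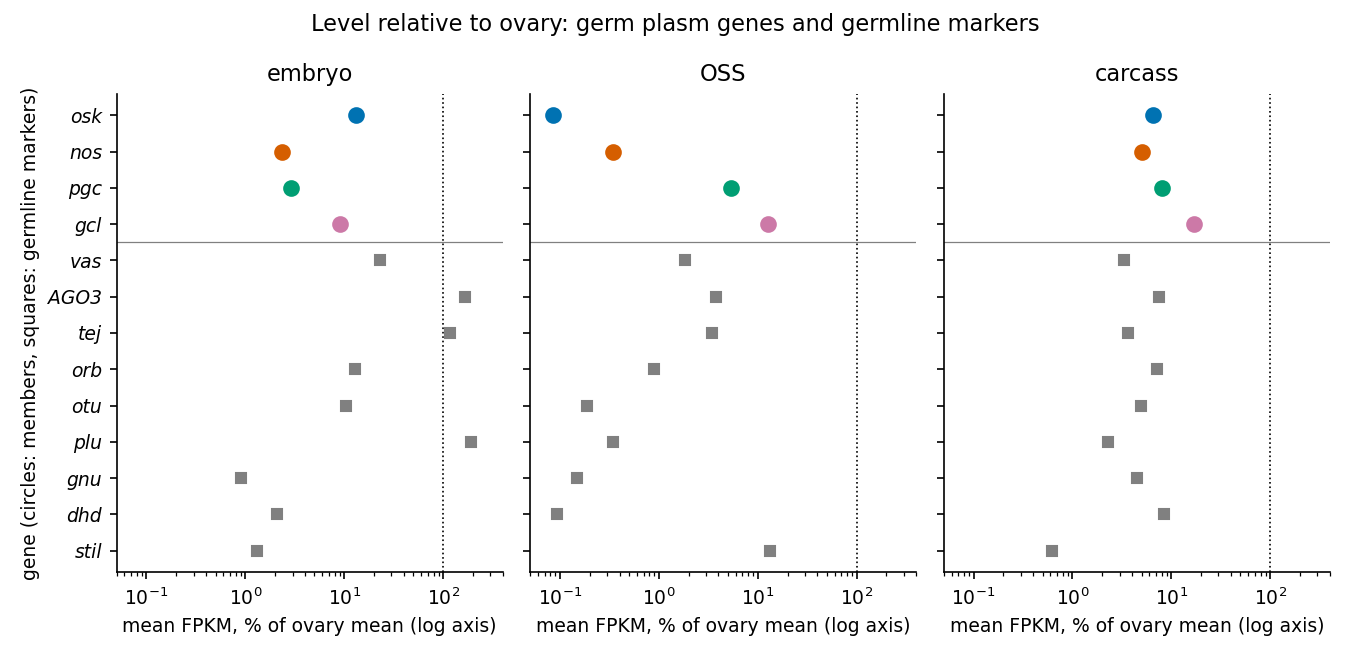
Mean FPKM in embryo, OSS and carcass as a percentage of the ovary mean (log axis), for the 4 members (circles) and 9 germline markers (squares); the dotted line is 100%. In carcass the members lie between 5.03% and 16.9%, and in OSS they spread from 0.084% for osk to 12.8% for gcl.

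Embryos were set against ovaries, where maternal RNA is made. Each of the 4 members was lower in embryo. Whole ovary is not the laid egg, so loss of RNA and a different makeup of the samples cannot be told apart here. As deposited, osk had the largest share of its ovary mean, at 13.2%. It averaged 53.1 ± 4.61 FPKM in embryo and 404 ± 12.6 in ovary (SD, n = 2 each). The log2 difference was -2.90 (SE 0.15, limma adjusted p = 4.07e-06). gcl averaged 10.6 ± 1.60 in embryo and 116 ± 2.41 in ovary, 9.10% of ovary, with -3.35 (SE 0.17, limma adjusted p = 4.38e-06). pgc averaged 10.3 ± 4.32 and 356 ± 5.86, 2.90% of ovary, with a 95% confidence interval of -5.70 to -4.37. nos averaged 5.81 ± 2.20 and 249 ± 6.52, 2.33% of ovary, with -5.24 (SE 0.24, limma adjusted p = 2.75e-06). In this comparison 59.9% of genes were called and 44.8% of the genes tested were lower in embryo and 15.1% higher, and the median difference over all genes was -0.58 for the deposited values, 0.08 for quantile-normalized and -0.01 for median-ratio scaled values. The share of calls that were higher was 25.2%, 51.4% and 47.1% under these scalings. The members were lower and called under each, but by less than as deposited. The log2 difference of osk was -2.75 after quantile normalization and -1.66 with median-ratio scaling, that of gcl -2.06 and -2.15, that of pgc -3.81 and -3.84, and that of nos -3.70 and -4.08. After quantile normalization gcl thus had a larger share than osk.

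The 9 germline markers had embryo means of 0.909% (gnu) to 190% (plu) of their ovary means, with a median of 12.8% and 3 markers above 100%. The 4 members lay inside that range, but it is too wide to set them apart from the markers. Of the 9 markers, 3 were under 10% of ovary, so a low share was not particular to the members. bcd, the anterior determinant and a maternal RNA laid down in the same oocyte, served as a comparator at the other pole. It was at 291 and 289 FPKM in embryo and 69.8 and 71.9 in ovary, 410% of ovary, a log2 difference of 2.02 (SE 0.13, limma adjusted p = 1.21e-05). The ratio of osk to bcd was 0.171 and 0.195 in embryo and 5.66 and 5.74 in ovary. For nos to bcd it was 0.0146 and 0.0255 in embryo and 3.50 and 3.52 in ovary. A ratio within a library is free of that library's scaling. An exact permutation test of 2 against 2 libraries cannot go below p = 0.33, which each of the 4 ratios to bcd gave (2-sided, adjusted p = 0.37 over 10 ratios). These ratios also carry the higher level of bcd itself in embryo. How many other genes would differ as much against bcd was not counted.

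The makeup of the 4 transcripts differed between groups. Of their summed FPKM, osk made up 63.0% and 70.1% in embryo, 35.5% and 36.3% in ovary, 0.846% and 1.10% in OSS, and 29.8% and 30.7% in carcass. pgc made up 16.9% and 9.01% in embryo, 32.3% and 31.0% in ovary, 48.7% and 59.5% in OSS, and 30.7% and 35.0% in carcass. The order from high to low was osk, pgc, nos and gcl in both ovary libraries, pgc, gcl, nos and osk in both OSS libraries, and pgc, osk, gcl and nos in both carcass libraries. In embryo, osk led both libraries and the order of the others differed between them.

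Ratios between members also differed between embryo and ovary. osk to nos was 11.7 and 7.66 in embryo and 1.62 and 1.63 in ovary, a 5.84-fold higher ratio in embryo. osk to pgc was 3.73 and 7.78 in embryo and 1.10 and 1.17 in ovary. osk to gcl moved least among the ratios that did not overlap, with 4.27 and 5.98 in embryo and 3.46 and 3.51 in ovary. nos to gcl was 0.364 and 0.781 in embryo and 2.14 and 2.15 in ovary. nos to pgc, at 0.318 and 1.02 in embryo and 0.678 and 0.721 in ovary, overlapped between the groups (exact permutation p = 1). The remaining 5 ratios between members each gave the smallest exact p of 0.33, so none of these differences could pass a test.

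The 3 comparisons without ovary order the low levels. Embryo against carcass had osk higher in embryo by 0.98 on the log2 scale (SE 0.15, limma adjusted p = 0.000615), with 77.7% of genes called, 23.7% higher and 54.1% lower. nos, pgc and gcl were lower in embryo as deposited, by log2 differences of -1.03, -1.44 and -0.84, and only osk kept its direction and call under every scaling: after quantile normalization nos was at 1.30, gcl at 0.71 and pgc at -0.11. Median-ratio scaling ended the call for gcl, at -0.45 (limma adjusted p = 0.0672). Embryo against OSS, with 68.3% of genes called, 17% higher and 51.4% lower, had osk higher by 5.34 (SE 0.15) and nos by 1.84 (SE 0.24) as deposited. Both stayed higher and called after quantile normalization, at 5.65 for osk and 3.51 for nos, and with median-ratio scaling, at 6.19 and 2.73. pgc was at -0.86 (SE 0.28, limma adjusted p = 0.0278) as deposited, at 1.17 after quantile normalization and at 0.38 after median-ratio scaling, and gcl was at -0.45 (SE 0.17, limma adjusted p = 0.054), 1.53 and 0.78. The call for pgc was lost without embryo replicate 2 (-0.46), without OSS replicate 1 (-1.01) and without OSS replicate 2 (-0.72), and gcl was called without embryo replicate 1 (-0.59) or OSS replicate 2 (-0.63). The median over all genes was -0.94 in this comparison with deposited values and -0.03 after quantile normalization, and -1.17 and 0.14 in embryo minus carcass.

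OSS against carcass gave lower values in OSS for osk, with a log2 difference of -4.35 (SE 0.15, limma adjusted p = 2.15e-06), and for nos, with -2.87 (SE 0.24, limma adjusted p = 4.2e-05). Of all genes 76% were called, 46.1% higher and 29.9% lower. pgc stood at -0.58 with a 95% confidence interval of -1.24 to 0.09 and gcl at -0.39 with -0.80 to 0.03 (limma adjusted p = 0.0982 and 0.0808), and gcl was called without OSS replicate 1 (-0.57). Quantile normalization made both lower with a call (-1.29 and -0.82), as did median-ratio scaling (-1.44 and -1.24), and the median over all genes was 0.51 with deposited values and -0.23 with median-ratio scaling. In order of level, osk ran from ovary through embryo and carcass to OSS and nos from ovary through carcass and embryo to OSS, with neighbours called in each step as deposited, though the step between carcass and embryo reversed for nos after quantile normalization. As deposited, pgc and gcl both ran from ovary through carcass and OSS to embryo. The step between OSS and embryo reversed for both after quantile normalization and with median-ratio scaling, though pgc was not called with the latter. For gcl, embryo also lay above carcass after quantile normalization. The carcass and OSS levels of pgc and gcl were not told apart as deposited, nor were the OSS and embryo levels of gcl.

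**Figure D3:**
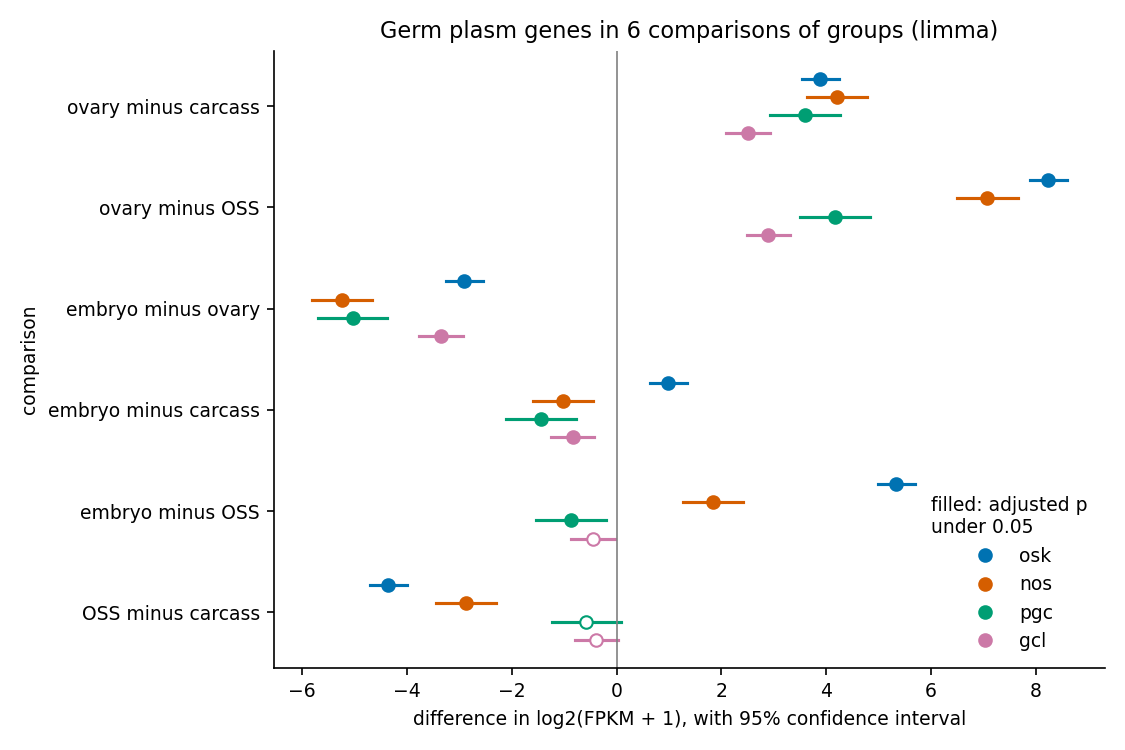
Difference in log2(FPKM + 1) of each member in 6 comparisons, with 95% confidence intervals from limma; filled points have an adjusted p under 0.05. The differences are positive for ovary minus carcass and ovary minus OSS and negative for embryo minus ovary for all 4 genes, and the open points are gcl in embryo minus OSS and pgc and gcl in OSS minus carcass.

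nos, pgc and gcl overlap a protein-coding gene on the opposite strand in a current annotation, which is of another build than the files and was used for names only. The sources used here do not say whether the authors assigned reads by strand. Whether reads from the stretch that such a pair shares were told apart is therefore unknown. pgc, on chromosome arm 2R, overlaps T3dh, an alcohol dehydrogenase gene. T3dh was at 4.53e-11 and 1.08e-08 FPKM in embryo, in effect 0, at 4.91 and 4.58 in ovary, 19.7 and 18.5 in OSS, and 5.90 and 9.02 in carcass. In OSS, T3dh and pgc thus had nearly the same level, whereas in ovary pgc was above T3dh by far. gcl, also on 2R, overlaps CG30356, which was listed at 0 in both embryo libraries and was at 2.32 and 1.71 FPKM in ovary, 11.5 and 8.01 in OSS, and 0 and 1.07 in carcass. CG30356 thus had its highest level in OSS, where gcl was at 16.8 and 12.9. nos, on 3R, overlaps CG11779 and Nsun5. CG11779 was at 3.54 and 5.37 FPKM in embryo, 49.1 and 49.0 in ovary, 38.1 and 40.9 in OSS, and 15.4 and 17.5 in carcass. OSS thus had CG11779 at near its ovary level with nos under 1 FPKM. osk, on 3R, overlaps the noncoding genes asRNA:CR44020 and lncRNA:osk. The part of the overlapping genes in the OSS levels of pgc and gcl was not tested.

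**Figure D4:**
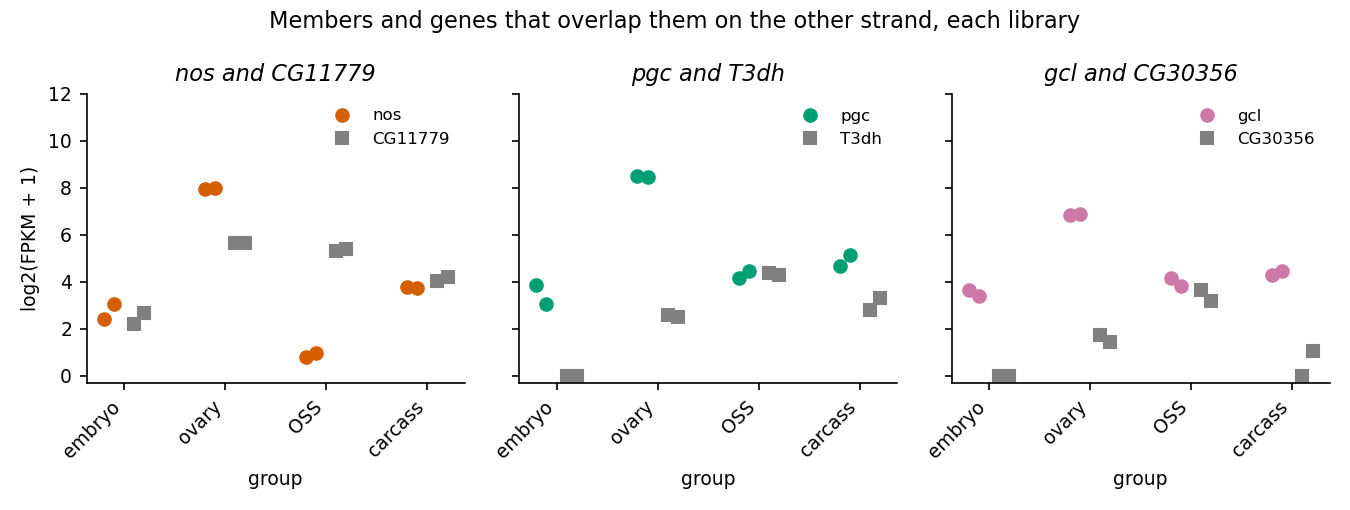
log2(FPKM + 1) in each library of nos, pgc and gcl (circles) and of the gene that overlaps each on the other strand (squares). In OSS, T3dh lies at the level of pgc (18.5 to 19.7 against 16.9 to 20.9 FPKM) and CG30356 reaches its highest values (8.01 and 11.5 FPKM).

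The genes that work with the members were examined as 5 lists of 49 genes, of which 47 were found and 45 tested. In ovary against carcass 40 were higher and 2 lower, 93.3% called beside 74.6% of all genes, with a median log2 difference of 1.85 beside 0.31 over all genes. With median-ratio scaling 32 were higher and 6 lower. The 11 genes that control osk translation were all higher, led by cup, a translational repressor, with 4.29 (SE 0.13, limma adjusted p = 2.32e-06); yps lost its call with median-ratio scaling. The 5 germ plasm assembly genes were higher, led by the helicase vas with 4.70 (SE 0.17), while tud, at 0.32 as deposited, was at -0.50 with median-ratio scaling. Of 7 partners, regulators and targets of nos tested, 7 were higher under each scaling, led by the cyclin gene CycB with 3.88 (SE 0.07). Of 14 genes for transport and anchoring of osk RNA 11 were higher, exu with 3.73 (SE 0.39) at the top, and the tropomyosin gene Tm1, whose product also serves in muscle, was lower by -1.09 (SE 0.10). Median-ratio scaling gave 7 higher and 3 lower in this list. Of 8 genes of germ cell fate and migration 6 were higher, led by zpg, a gap junction gene of the germline, with 4.24 (SE 0.36), and wun was lower with -0.58 (SE 0.14); median-ratio scaling gave 4 higher and 2 lower.

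In ovary against OSS 35 of 45 were higher and 8 lower, 95.6% called beside 41.7% of all genes, with a median of 1.09 beside -0.16. The largest difference in each of the 5 lists was that of aret, which encodes the osk repressor Bruno, with 7.35 (SE 0.16, limma adjusted p = 1.73e-06), at 402 and 426 FPKM in ovary and 1.24 and 1.90 in OSS, zpg with 6.85 (SE 0.36), exu with 6.04 (SE 0.39), vas with 5.38 (SE 0.17) and hb, the gap gene whose maternal RNA Nanos represses, with 4.61 (SE 0.16). Those higher in OSS included mago, of the exon junction complex, at -1.07 (SE 0.15), the Y-box gene yps at -0.73 (SE 0.09) and rump at -0.45 (SE 0.10), in ovary minus OSS. vls, the gene valois, was at -1.37 (SE 0.39, limma adjusted p = 0.0287) as deposited and was not called after quantile normalization (-2.05) or median-ratio scaling (-1.28).

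In embryo against ovary, the comparison in which the 4 members were lower in embryo, the lists were divided. Of 45 genes 20 were higher and 22 lower, 93.3% called beside 59.9% of all genes, with a median of -0.40 beside -0.58; after quantile normalization 24 were higher and 15 lower, and after median-ratio scaling 25 and 16. The nos list was mostly higher, 5 of 7, with pum, which encodes the RNA-binding partner of Nanos, at 198 ± 9.48 FPKM in embryo and 63.2 ± 4.91 in ovary (SD, n = 2 each), a log2 difference of 1.63 (SE 0.12, limma adjusted p = 2.24e-05). smg, which encodes the repressor of unlocalized nos RNA, was at 909 ± 14.5 in embryo and 318 ± 3.70 in ovary. The gene that was lower in this list was twin, a deadenylase subunit, with -3.42 (SE 0.12). In the osk transport list 8 were higher, led by the double-stranded RNA-binding gene stau with 1.69 (SE 0.10), and 6 were lower, with exu at -5.05 (SE 0.39). Among translation regulators of osk 5 were higher, led by glo with 1.91 (SE 0.10), and 6 lower, with aret at -3.82 (SE 0.16, limma adjusted p = 2e-06); cup and Imp changed sign with median-ratio scaling, which gave 7 higher and 3 lower. The assembly genes had 4 lower and 0 higher, vls with -3.63 (SE 0.39) at the extreme, but -1.54 and not called after quantile normalization, and csul turned to higher under both other scalings (0.56 and 0.79). Of the germ cell fate genes 5 were lower, with zpg at -5.37 (SE 0.36), and 2 higher, among them tor, the receptor gene whose product gcl acts on, with 0.98 (SE 0.17). Quantile normalization turned the majority of this list, to 4 higher and 2 lower, while median-ratio scaling gave 3 higher and 4 lower; tor was higher and zpg lower under each. tll and hkb, zygotic targets of Torso signalling, did not pass the filter, and lost and tre1 were not analysed here.

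**Figure D5:**
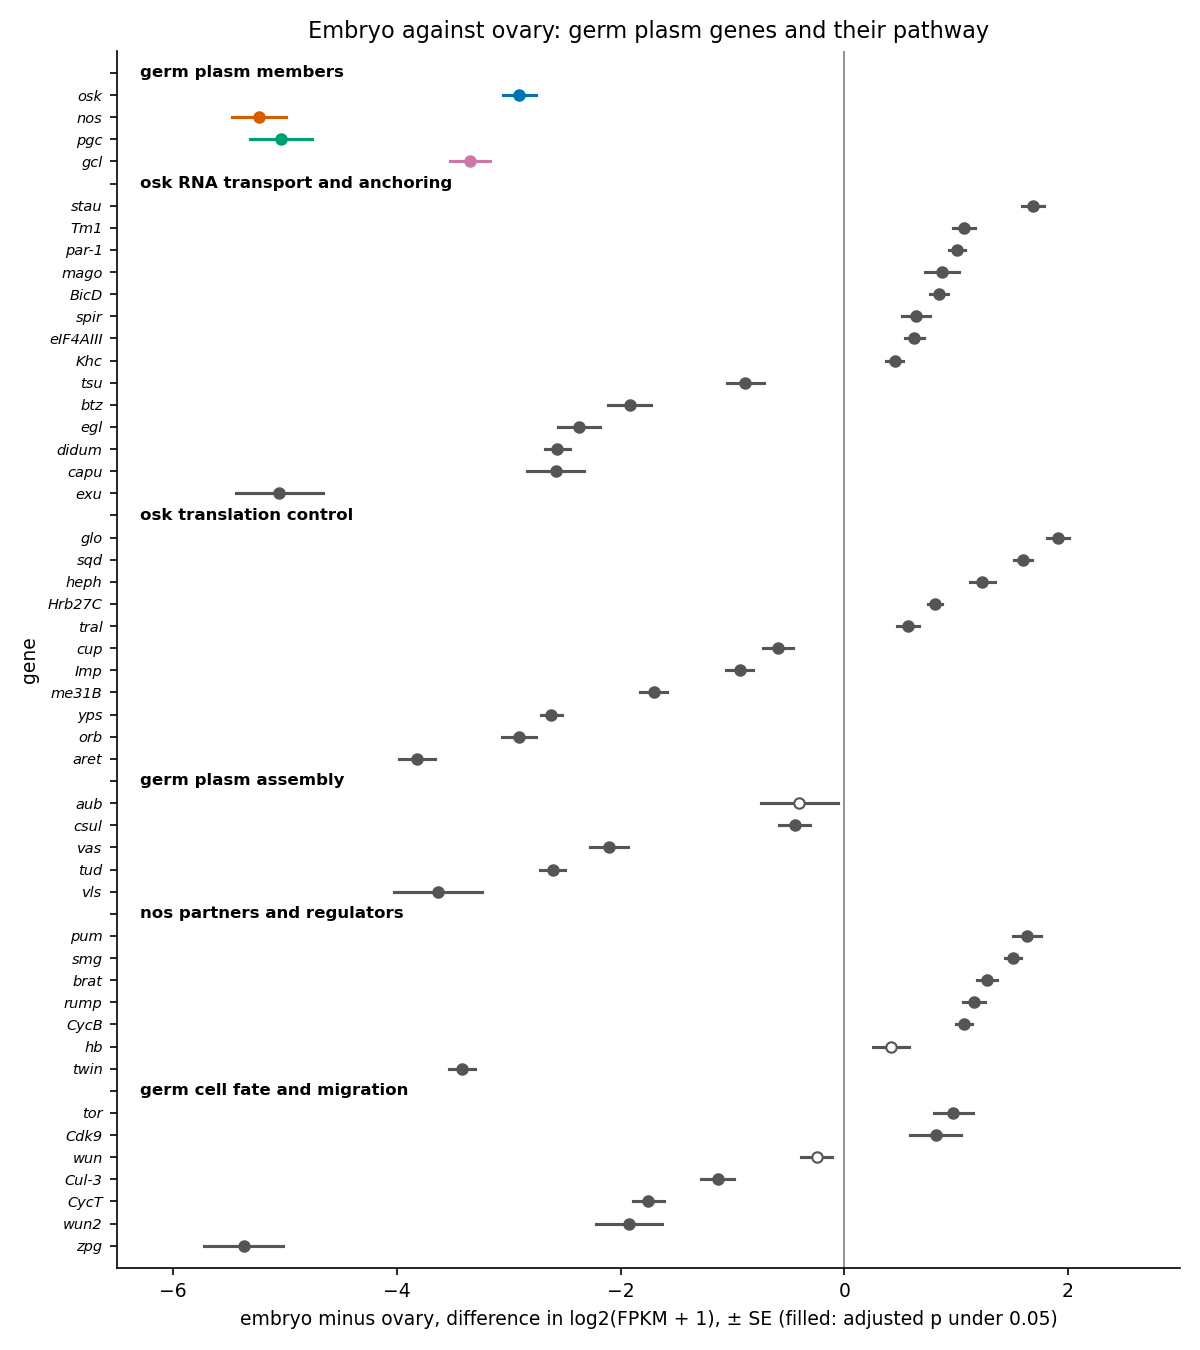
Embryo minus ovary difference in log2(FPKM + 1), with its SE, for the 4 members and for genes of the 5 lists; filled points have a limma adjusted p under 0.05. The members lie between -5.24 and -2.90, while genes of the nos list lie on both sides, with pum at 1.63 and twin at -3.42.

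In embryo against carcass 30 of the 45 listed genes were higher and 11 lower, 91.1% called beside 77.7% of all genes, with 33 higher and 4 lower after quantile normalization. Embryo against OSS gave 27 higher and 12 lower, 86.7% called beside 68.3%, with 33 and 5 after quantile normalization and 35 and 5 after median-ratio scaling. OSS against carcass gave 24 higher and 13 lower, 82.2% called beside 76%, with 15 and 21 after median-ratio scaling.

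Profiles most like each member were found by the distance between centred log2(FPKM + 1) values over the 8 libraries, among 11195 other genes with a value in all of them. Nearest to osk were CG3509, at a distance of 1.11, otu at 1.82, Pxt at 2.21, aret at 2.26 and cad at 2.28. CG3509 averaged 38.4 FPKM in embryo, 322 in ovary, 0.797 in OSS and 18.5 in carcass. Nearest to nos were CG11674 at 1.01, stet at 1.12, BicC at 1.18, zpg at 1.26 and gammaTub37C at 1.29. BicC averaged 10.9 FPKM in embryo, 268 in ovary, 0.662 in OSS and 13.6 in carcass. Nearest to pgc were CG13741 at 1.06, CycJ at 1.11, CG12517 at 1.50, sim at 1.54 and CG12708 at 1.57, and nearest to gcl were slif at 0.873, rap at 0.881, Nox at 0.906, Muc12Ea at 1.07 and CG15221 at 1.07. CycJ averaged 0.351 FPKM in embryo, 67.6 in ovary, 2.42 in OSS and 3.88 in carcass. Several of these neighbours are genes of much lower level than the member, down to 6.33 FPKM in ovary for Muc12Ea. These neighbours were picked as the smallest distances of 11195, so a fixed pair of members will mostly lie farther apart. Among the members, pgc and gcl were closest at 1.87, with gcl at rank 25 among the neighbours of pgc. That distance was smaller than those of Pxt, aret and cad to osk. nos lay 3.47 from pgc and 3.59 from osk, and was at rank 15 among the neighbours of osk. osk and gcl were farthest apart at 6.47, with gcl at rank 259 among the neighbours of osk.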

How the data were processed

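Total RNA (5 ug) was depleted of ribosomal RNA and sequenced, per the labels' protocols. Per the submitters' processing notes, the build was dm3 and the tools were Cufflinks, TopHat, Bowtie and CASAVA 1.3. Annotation and filters are not stated there. The deposited gene values are FPKM made by the authors, per the file headers, with no counts. In carcass replicate 1 the deposited column was recorded under another unit, because 1070 of its 14147 lines hold no number. The authors named it FPKM too, and it was used as FPKM. In carcass replicate 2, 5 lines hold dashes. All these lines were missing values, none of them a member. Names on more than 1 line (93 names, 255 lines) were left out. Genes at 1 FPKM or more in at least 2 of 8 libraries (11488) were fitted as log2(FPKM + 1), without further scaling, with limma 3.58.1 in R 4.3.3 (lmFit, eBayes with trend, 4 residual degrees of freedom, 2-sided), adjusting within each of 6 comparisons. The fit was tested on simulated data. Named genes are the members, the called gene with the largest difference in each direction of each list and of the 3 comparisons with ovary, and the 5 nearest profiles of each member. smg, csul, Imp, tud and the genes that overlap members were added after their values were seen. The members and lists were chosen with earlier results of these data known. Alternatives were pseudocount, filter, scaling, trend, fit of 2 groups, replicate block and leaving out each library. For 1 of the listed genes, which enters the counts, its own values are not reported here. Sequences and positions are not given.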

Additional observations from a re-analysis of the deposited data

How the results depend on the processing

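For the members in the 3 comparisons that involve ovary, no alternative changed a direction or a call. In embryo minus carcass, quantile normalization gave 1.30 for nos, 0.71 for gcl and -0.11 for pgc, median-ratio scaling gave -0.45 for gcl, and a fit of the 2 groups alone gave -1.03 for nos (adjusted p = 0.0582). In embryo minus OSS, quantile normalization gave 1.17 for pgc and 1.53 for gcl and median-ratio scaling 0.38 and 0.78. The call for pgc was lost at -0.86 without the filter and in the fit of the 2 groups. It was also lost without embryo replicate 2 and without either OSS replicate, and leaving out each library gave a range of -1.26 to -0.46 for pgc and of -0.63 to -0.27 for gcl, whose difference was called without embryo replicate 1 and without OSS replicate 2. In OSS minus carcass, pgc and gcl were called after quantile normalization (-1.29 and -0.82) and median-ratio scaling (-1.44 and -1.24), and gcl without OSS replicate 1 (range -0.57 to -0.21). The cause was not tested. Genes called in ovary minus OSS numbered 4796, and between 3044 and 3233 with a library of these groups left out. The fit of the 2 groups alone called 7165 genes in ovary minus OSS. Deviations of libraries with the same replicate number were hardly correlated between groups (-0.0664 to 0.0225), which cannot show whether the samples were paired. The replicate block changed no member's call (pgc in embryo minus OSS stood at -0.86, limma adjusted p = 0.0415, with the block). The unknown depth limits osk and nos in OSS, both under 1 FPKM.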
